A study of Mus musculus with 4 samples.

Results

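The genes described here encode the CD8 coreceptor, the CD3 and zeta chains of the T cell receptor complex, and the kinases and adaptors that carry the receptor signal across its opening steps. They are Cd8a, Cd8b1, Cd3d, Cd3e, Cd3g, Cd247, Lck, Zap70, Lat and Lcp2, chosen by gene symbol, and all 10 were present among the 15367 symbols of the deposited expression table. All 10 also passed the filter on low values (a 4-library mean FPKM of 1 or more), as did 9805 symbols in all.

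RNA was measured in hepatic CD8 T cells that had been sorted by flow cytometry from adult C57BL/6 mice fed an MCD diet for 4 weeks. There were 2 libraries from mice labelled perforin knockout (Prf KO) and 2 from mice labelled wild type (WT), and both groups received the diet, so no library shows cells from a normally fed liver. The labels do not say which part of the perforin gene the knockout allele removes, how many animals gave each library, or whether the 2 libraries of a group came from separate animals. The p-values therefore measure the spread between these libraries, which may be technical. Values were read as FPKM, which scale fragments to transcript length and library total. The files do not name the unit, so levels of different genes are set beside each other on the assumption that the values are scaled to length, and the read depth behind each value is unknown.

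The antigen-binding chains of the T cell receptor have no signalling tail of their own and rely on the CD3 and zeta chains, whose cytoplasmic motifs are phosphorylated when the receptor is engaged. CD8 binds MHC class I beside the receptor and brings in the kinase LCK, which phosphorylates those motifs. ZAP-70 then docks on them and phosphorylates the adaptors LAT and SLP-76, the product of Lcp2, on which the downstream enzymes assemble. In a sorted CD8 population Cd8a and Cd8b1 mark the cell type itself. The CD3, zeta and signalling genes are not taken as markers of CD8 cells alone.

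Cd3d, Cd3e and Cd3g are neighbouring genes, and Cd8a and Cd8b1 also lie side by side, by the order of genes in the GENCODE M21 annotation. RefSeq promoter windows, from 250 bases before to 50 bases after a gene's start, were matched by symbol for 9 of the 10 genes. Windows of the 3 neighbouring CD3 genes are shown because their RNA values differed in pattern between libraries, and that of Lat because its log2 fold was, with that of Cd3g, the largest in size of the 10. This choice was made after the values were seen. Coordinates are those of build GRCm38.p6, on the plus strand for Cd3d (chr9:44981536-44981835) and on the minus strand for Cd3e (chr9:45009562-45009861), Cd3g (chr9:44980382-44980681) and Lat (chr7:126369519-126369818). Capitals mark AGGAAG, the core letters of an ETS site, TGTGGT, those of a RUNX site, and CACCTG, an E-box, on either strand, and no 2 marked matches overlapped.
Cd3d: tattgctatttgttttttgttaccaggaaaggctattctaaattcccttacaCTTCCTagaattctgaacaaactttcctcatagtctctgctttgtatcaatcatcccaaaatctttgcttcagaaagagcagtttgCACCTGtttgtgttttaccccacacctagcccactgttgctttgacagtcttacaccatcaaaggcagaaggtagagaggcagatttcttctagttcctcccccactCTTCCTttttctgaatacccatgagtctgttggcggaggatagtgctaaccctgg
Cd3e: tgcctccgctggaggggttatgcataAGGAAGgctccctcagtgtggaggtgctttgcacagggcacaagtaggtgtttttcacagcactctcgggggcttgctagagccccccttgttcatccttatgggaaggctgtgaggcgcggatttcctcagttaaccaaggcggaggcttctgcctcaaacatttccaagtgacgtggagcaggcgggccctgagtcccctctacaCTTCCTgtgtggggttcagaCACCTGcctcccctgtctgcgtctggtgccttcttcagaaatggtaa
Cd3g: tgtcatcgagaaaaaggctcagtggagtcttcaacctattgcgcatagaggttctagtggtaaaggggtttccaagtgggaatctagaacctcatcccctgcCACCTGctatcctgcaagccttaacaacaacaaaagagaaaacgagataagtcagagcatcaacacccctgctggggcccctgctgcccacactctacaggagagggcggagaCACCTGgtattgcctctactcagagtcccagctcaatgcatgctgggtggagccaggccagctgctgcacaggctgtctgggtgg
Lat: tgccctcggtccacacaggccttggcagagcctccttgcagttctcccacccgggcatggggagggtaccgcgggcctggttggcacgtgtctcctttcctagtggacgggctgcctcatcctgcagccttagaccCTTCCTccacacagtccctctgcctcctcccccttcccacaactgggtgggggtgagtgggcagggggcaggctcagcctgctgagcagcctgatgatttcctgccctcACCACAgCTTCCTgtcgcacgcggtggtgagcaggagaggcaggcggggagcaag
The ETS letters occurred 2 times each in the Cd3d, Cd3e and Lat windows and 0 times in the Cd3g window. Cd3g held the E-box letters 2 times, Cd3d and Cd3e held them 1 time each, and Lat was the only one of these 4 with the RUNX letters. Of 32851 RefSeq promoter windows of the same length, 35.4% held the ETS letters, 16.8% the RUNX letters and 20.2% the E-box letters. Each of these matches is only a run of letters in the window.

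Prf1, the targeted gene, encodes perforin, the pore-forming protein of cytotoxic granules, whose part in steatohepatitis brought on by the diet is the subject of the study. Its FPKM was 95.4 and 98.7 in the libraries labelled Prf KO (replicates 1 and 2), against 125 and 113 in the WT libraries. Prf1 RNA was thus present in both groups and gives no check of the labels, which alone set the directions given here. Most unlike the rest was the library labelled Prf KO replicate 1, with 549 tested genes more than 2-fold from all 3 other libraries in the same direction, against 41 for the library labelled Prf KO replicate 2 and 89 and 78 for the WT libraries. Log2 folds of the 10 genes that rest on it are given with and without it.

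The 10 genes were strongly expressed in all 4 libraries, and none passed the test between groups. Their FPKM lay between 89.4 (Cd3g in the library labelled Prf KO replicate 1) and 759 (Cd8b1 in the same library), and within each library they ranked between 46th and 641st of all symbols. Summed FPKM over the 10 genes was 2643 and 3001 in the libraries labelled Prf KO, against 3236 and 3329 in the WT libraries, or 0.790% and 0.783% of the column sum in the libraries labelled Prf KO, against 0.855% and 0.848% in the WT libraries. By limma, 0 of the 10 were higher and 0 lower at an adjusted p under 0.05, and 0 of the 10 had an unadjusted p under 0.05. Over all tested genes limma called 0.00% in each direction, and 4.79% had an unadjusted p under 0.05, 2.07% on the higher and 2.72% on the lower side.

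Of the 10 genes, 9 had a negative log2 fold, labelled Prf KO minus WT on the log2(FPKM + 1) scale, and 1 (Cd3e) a positive one. Over all tested genes, 41.7% had a positive one. The negative folds of Cd8a (-0.03) and Cd8b1 (-0.00016) turned positive with upper-quartile, median-ratio and quantile scaling. The median log2 fold of the 10 genes was -0.29, beside -0.08 over all tested genes and -0.14 over the 642 tested genes with a mean of at least 100. That level was reached by all 10 and was chosen after the values were seen. Both libraries labelled Prf KO lay below both WT libraries for 5 of the 10, Cd3d, Cd3g, Cd247, Lat and Lcp2, where the background over all tested genes was 21.9%, and 27.3% among those with a mean of at least 100. After quantile normalization the count was 3 of 10, where 19.1% of all genes tested under it did the same. Neither group lay wholly above the other in the remaining 5, and 0 of the 10 were above in both libraries labelled Prf KO, with a background of 13.9%. Without the library labelled Prf KO replicate 1, the remaining one lay below both WT libraries for 7 of the 10 and above both for 1 (Zap70), with backgrounds of 34.2% and 31.9%. The median log2 fold was then -0.14, beside -0.01 over all tested genes. In bulk RNA of this kind, fewer cells of a type and less RNA per cell cannot be told apart.

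**Figure D1:**
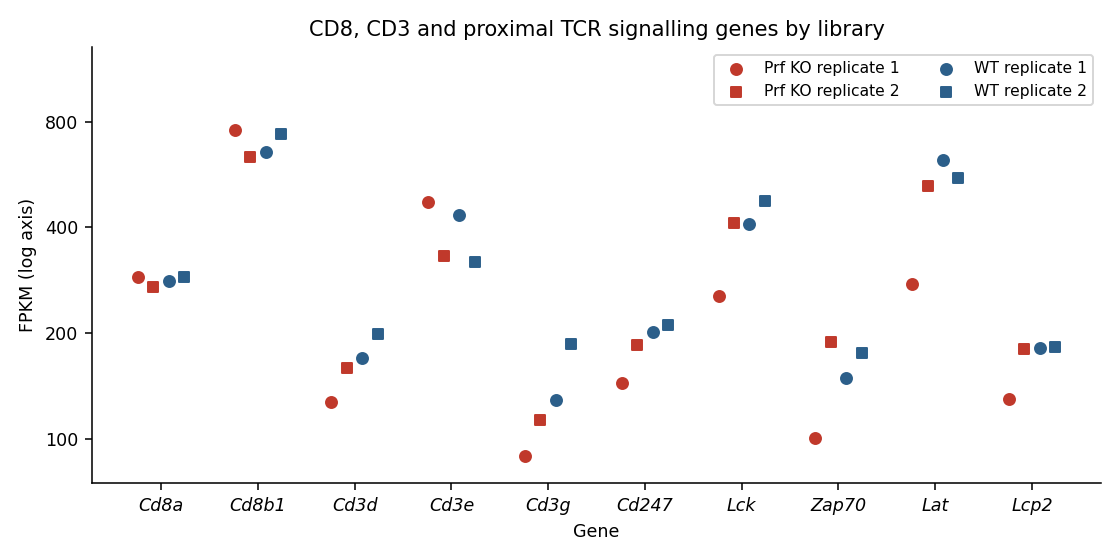
FPKM of each gene (log axis) in the 4 libraries, red for the libraries labelled Prf KO and blue for WT, circles for replicate 1 and squares for replicate 2. The library labelled Prf KO replicate 1 is the lowest point for 7 genes and the highest for Cd8a, Cd8b1 and Cd3e. For Cd8a it is almost level with WT replicate 2.

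The coreceptor genes had overlapping values in the 2 groups. Cd8a, which encodes the alpha chain that binds MHC class I and holds LCK, had an FPKM of 289 and 272 in the libraries labelled Prf KO, against 283 and 289 in the WT libraries. The 4 values overlapped and spanned the narrowest range of the 10 genes in proportion to their level. Its log2 fold was -0.03 (SE 0.24, 95% interval -0.57 to 0.52, limma adjusted p = 0.986). Cd8b1, which encodes the beta chain of the heterodimer carried by conventional CD8 T cells, had 759 and 635 in the libraries labelled Prf KO, against 654 and 737 in the WT libraries. It was the most abundant of the 10 in every library, and its groups overlapped, with a log2 fold of -0.00016 (95% interval -0.61 to 0.61, limma adjusted p = 1.00).

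The ratio of Cd8b1 to Cd8a FPKM was 2.63 and 2.34 in the libraries labelled Prf KO, against 2.32 and 2.55 in the WT libraries. The beta chain value stood above the alpha chain value in all 4, which rests on the assumed scaling to length, and the groups overlapped. Upper-quartile, median-ratio and quantile scaling turned the log2 folds of both coreceptor genes positive, to between 0.05 and 0.11, so no direction is given for either.

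Among the CD3 chains, Cd3e behaved differently from its neighbours. Cd3e encodes the epsilon chain, which pairs with both the gamma and the delta chain. Its FPKM was 472 and 331 in the libraries labelled Prf KO, against 433 and 319 in the WT libraries. Replicate 1 was the higher one in both groups, by 0.51 on the log2 scale in the libraries labelled Prf KO and by 0.44 in the WT libraries, while the log2 fold between groups was 0.09 (SE 0.29, limma adjusted p = 0.966). Without the library labelled Prf KO replicate 1 the log2 fold was -0.17, and without WT replicate 2 it was -0.13. Exons of Cd3e overlap an antisense gene model, Gm48719, and the library kit does not mark strand, so reads of the pair could not be separated.

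Cd3g, the gamma chain gene, had an FPKM of 89.4 and 114 in the libraries labelled Prf KO, against 130 and 186 in the WT libraries. The groups did not overlap, and replicate 1 was the lower one in each. Its log2 fold of -0.62 (SE 0.28, 95% interval -1.25 to 0.01, limma adjusted p = 0.866) exceeded the larger of its 2 replicate differences, 0.52 between the WT libraries. With each library left out in turn, the log2 fold lay between -0.88 and -0.36, and it was -0.45 without the library labelled Prf KO replicate 1.

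Cd3d, the delta chain gene, had 128 and 159 in the libraries labelled Prf KO, against 170 and 199 in the WT libraries. Its groups did not overlap either, and the log2 fold of -0.37 (SE 0.25, 95% interval -0.94 to 0.21, limma adjusted p = 0.866) was just larger than the 0.32 between the libraries labelled Prf KO. Without the library labelled Prf KO replicate 1 it was -0.21. Cd3d and Cd3g were the 2 genes of the 10 whose group difference exceeded both replicate differences, where 21.8% of all tested genes did so. The smallest two-sided p that exact permutation of 2 against 2 libraries allows is 0.333, and Cd3d, Cd3g, Cd247, Lat and Lcp2 were all at that limit.

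Cd247 encodes the zeta chain, a disulphide-linked dimer that carries most of the signalling motifs of the complex. It had an FPKM of 145 and 185 in the libraries labelled Prf KO, against 202 and 211 in the WT libraries. The WT libraries lay close together and above both others, but the difference between the libraries labelled Prf KO, 0.35 on the log2 scale, was larger than the log2 fold of -0.33 (SE 0.25, 95% interval -0.90 to 0.24, limma adjusted p = 0.866). The fold was -0.16 without the library labelled Prf KO replicate 1. Cd247 shares exonic sequence with Pou2f1 on the opposite strand, whose FPKM was 1.83 and 1.50 in the libraries labelled Prf KO, against 2.91 and 2.26 in the WT libraries.

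Summed over the 4 CD3 and zeta chain genes, FPKM was 833 and 789 in the libraries labelled Prf KO, against 935 and 915 in the WT libraries. The epsilon chain gene made up 56.6% and 42.0% of that sum in the libraries labelled Prf KO, against 46.3% and 34.8% in the WT libraries. In each group replicate 1 had the higher share, and the groups overlapped. The gamma chain gene made up 10.7% and 14.4% in the libraries labelled Prf KO, against 13.9% and 20.4% in the WT libraries.

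The ratio of Cd3e to Cd3g was accordingly 5.27 and 2.91 in the libraries labelled Prf KO, against 3.34 and 1.71 in the WT libraries. That of Cd3d to Cd3g, the chains that each pair with epsilon, was 1.43 and 1.40 in the libraries labelled Prf KO, against 1.31 and 1.07 in the WT libraries, without overlap. Within-library ratios do not depend on the library total. Relative to the geometric mean of the 4 chain genes, Cd8a stood at 1.73 and 1.49 in the libraries labelled Prf KO, against 1.35 and 1.29 in the WT libraries, also without overlap. In all, 21 ratios were computed, none was tested, and 5 did not overlap between groups. The others of these 5 were Cd8b1 relative to the same geometric mean, where WT was the lower group, and Lat to Lcp2 and Lck to Zap70, where WT was the higher one. If 2 against 2 libraries are ordered at random, a share of 0.333 has no overlap. The 5 of 21 do not exceed that share, so a lack of overlap alone sets no ratio apart.

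**Figure D2:**
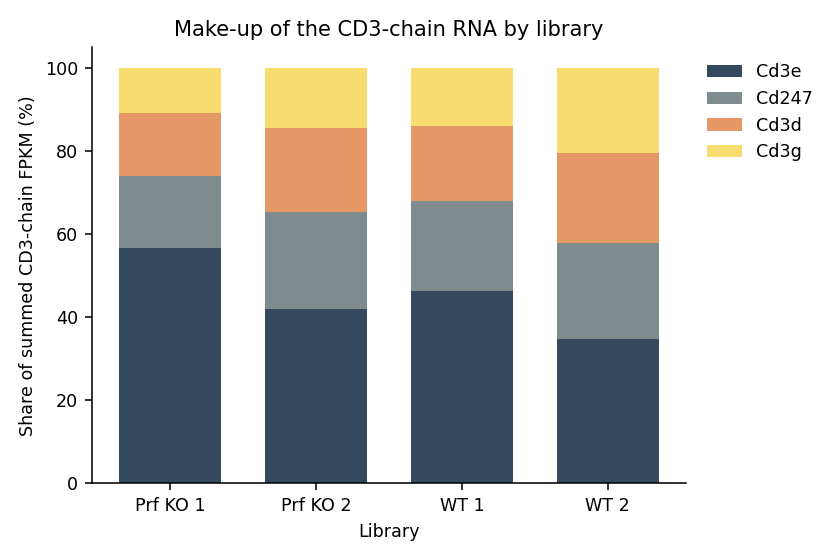
Share (%) of the summed FPKM of Cd3e, Cd247, Cd3d and Cd3g taken by each gene in each library. Cd3e takes 56.6% in the library labelled Prf KO replicate 1 and 34.8% in WT replicate 2, with the other 2 libraries between them.

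The 4 signalling genes downstream of the receptor shared a pattern in which 1 library was low. Summed FPKM of Lck, Zap70, Lat and Lcp2 was 762 and 1305 in the libraries labelled Prf KO, against 1364 and 1388 in the WT libraries. The library labelled Prf KO replicate 1 thus lay far below the other 3, which were close together. Across all 10 genes it was the lowest library for 7, these 4 together with Cd3d, Cd3g and Cd247. The background over all tested genes was 43.5%, and 62.9% among the 642 tested genes with a mean of at least 100. For the other 3 it was the highest library, with a background of 25.2%, though for Cd8a WT replicate 2 was almost level.

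Lat encodes the membrane adaptor that ZAP-70 phosphorylates. It had an FPKM of 276 and 525 in the libraries labelled Prf KO, against 623 and 553 in the WT libraries. Both libraries labelled Prf KO were below both WT libraries, but replicate 2 lay near them. The log2 fold of -0.62 (SE 0.34, 95% interval -1.39 to 0.14, limma adjusted p = 0.866) was smaller than the 0.92 between the libraries labelled Prf KO. It was -0.16 without replicate 1 of that group and -1.09 without replicate 2.

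Lck, the Src-family kinase bound by CD8, had 255 and 411 in the libraries labelled Prf KO, against 410 and 476 in the WT libraries. Replicate 2 labelled Prf KO stood level with WT replicate 1, so the groups overlapped. The log2 fold was -0.45 (SE 0.30, 95% interval -1.13 to 0.24, limma adjusted p = 0.866), and -0.10 without the library labelled Prf KO replicate 1. Relative to Cd8a, whose product carries the kinase to the receptor, Lck stood at 0.881 and 1.51 in the libraries labelled Prf KO, against 1.45 and 1.65 in the WT libraries.

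Zap70, the kinase that docks on the phosphorylated CD3 and zeta chains, had the lowest and the highest value in the same group. Its FPKM was 101 and 189 in the libraries labelled Prf KO, against 149 and 176 in the WT libraries. The log2 fold of -0.23 (SE 0.32, 95% interval -0.97 to 0.51, limma adjusted p = 0.915) became 0.22 without the library labelled Prf KO replicate 1. No direction is read from it.

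Lcp2 encodes SLP-76, the cytosolic adaptor that joins LAT to the downstream enzymes. It had 130 and 180 in the libraries labelled Prf KO, against 182 and 183 in the WT libraries. Only replicate 1 labelled Prf KO stood away from the other 3, and the log2 fold of -0.25 (SE 0.26, limma adjusted p = 0.884) was -0.02 without it. Exons of Lcp2 overlap 4930469K13Rik on the opposite strand, so its value may include reads of that gene.

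**Figure D3:**
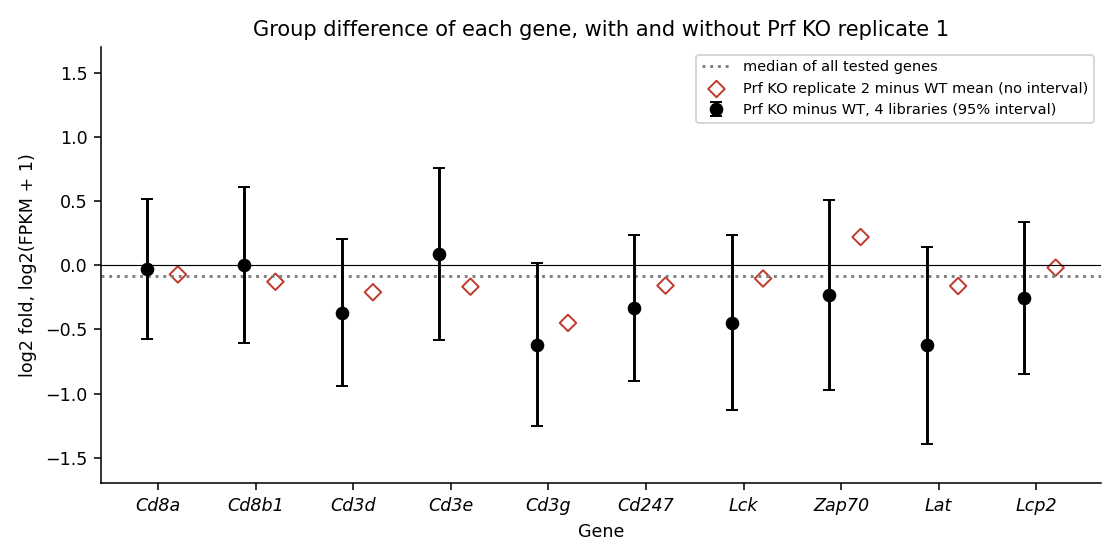
Log2 fold of each gene, labelled Prf KO minus WT on the log2(FPKM + 1) scale, with its 95% limma interval (black), and the same difference with the library labelled Prf KO replicate 1 left out (red diamonds, no interval drawn). All 10 intervals include 0. The diamonds of Cd3d, Cd3g, Cd247, Lck, Lat and Lcp2 lie closer to 0 than the black points. Those of Cd3e and Zap70 have the opposite sign.

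**Figure D4:**
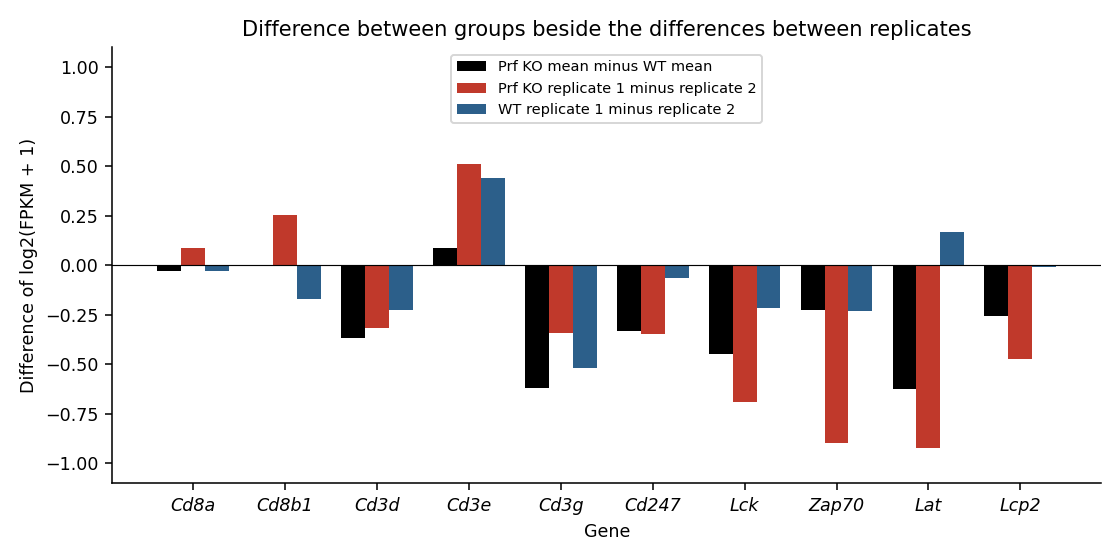
For each gene, the difference of log2(FPKM + 1) between the group means (black), between the libraries labelled Prf KO (red) and between the WT libraries (blue). The black bar is the longest for Cd3d and Cd3g only.

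The library labelled Prf KO replicate 1 minus the mean of the other 3, on the log2(FPKM + 1) scale, gave -1.03 for Lat, -0.76 for Lck and -0.75 for Zap70. Next came -0.64 for Cd3g, -0.48 for Lcp2, -0.46 for Cd3d and -0.45 for Cd247, so the low values were not limited to the signalling genes. The same difference was 0.40 for Cd3e, 0.17 for Cd8b1 and 0.04 for Cd8a. Its median was -0.47 over the 10 genes, -0.14 over all tested genes and -0.28 over those with a mean of at least 100. In this library the median was thus below 0 for strongly expressed genes as a whole as well. Cd8b1 and Cd3e were above the other libraries, and Cd8a was almost level with the highest of them (289.0 against 288.7 in WT replicate 2).

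Marker genes of other cell types also had values in these libraries, and some of them moved with the same library. Liver endothelial markers, 15 of 15 in the table, summed to 576 and 159 FPKM in the libraries labelled Prf KO, against 393 and 79.4 in the WT libraries, and so were higher in replicate 1 of both groups, as Cd3e was. Macrophage and Kupffer cell markers (13 of 14, mostly Lyz2) summed to 1677 and 2457 in those labelled Prf KO, against 2459 and 2559 in WT. Lyz2 alone had 1508 and 2391 in those labelled Prf KO, against 2387 and 2510 in WT, while only 3 of the 9 tested genes of the list had a negative log2 fold and their median was 0.80, or 0.06 without the library labelled Prf KO replicate 1. Csf1r, for example, had 38.2 and 24.3 in those labelled Prf KO, against 17.1 and 17.1 in WT. Summed levels of dendritic cell and MHC class II markers (11 of 11) were 1377 and 1979 in those labelled Prf KO, against 3619 and 1677 in WT, and those of neutrophil markers (11 of 12) were 108 and 144 in those labelled Prf KO, against 231 and 246 in WT. NK cell markers (9 of 9) summed to 45.0 and 61.9 in those labelled Prf KO, against 58.9 and 56.7 in WT, and B cell markers (7 of 8) to 25.8 and 62.9 in those labelled Prf KO, against 42.4 and 51.7 in WT. Their part in the results was not tested.

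Markers of other T cells were also summed. Those of CD4 and regulatory T cells (5 of 5) summed to 15.8 and 26.1 FPKM in the libraries labelled Prf KO, against 10.2 and 29.1 in the WT libraries, mostly through Cd40lg. Cd4 itself was listed at 0 in the library labelled Prf KO replicate 1 and was 1.50 in replicate 2, against 0.0125 and 0.579 in the WT libraries. Markers of gamma delta and NKT cells (6 of 8) summed to 5.30 and 4.84 in those labelled Prf KO, against 5.42 and 4.68 in WT, and those of hepatocytes (12 of 12, with Ttr and Fgb listed at 0 in all libraries) to 33.1 and 11.0 in those labelled Prf KO, against 20.4 and 14.5 in WT. The NK receptor gene Ncr1 was listed at 0 in 3 of the 4 libraries. Of 12 symbols listed for the receptor chains themselves, 0 matched a symbol of the deposited expression table, so these chains were not analysed here.

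A list of other general T cell genes, 15 of 15 in the table, summed to 3789 and 4500 FPKM in the libraries labelled Prf KO, against 4526 and 4235 in the WT libraries. The groups overlapped, and the median log2 fold was -0.12. The library labelled Prf KO replicate 1 was the lowest for 9 of the 15. The background was 43.5% over all tested genes, and 62.9% among those with a mean of at least 100. Cd2, an adhesion receptor of T and NK cells, had 575 and 1185 in the libraries labelled Prf KO, against 1196 and 929 in the WT libraries. Ets1, a lymphocyte transcription factor, had 665 and 835 in those labelled Prf KO, against 705 and 715 in WT.

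The wider pathway around these genes showed no common direction. Of 72 tested genes for kinases and phosphatases, adaptors, negative regulators and downstream enzymes, limma called 0 at an adjusted p under 0.05, and 5 had an unadjusted p under 0.05. Both libraries labelled Prf KO lay below both WT libraries for 16 of the 72 (22.2%) and above for 15 (20.8%), beside 21.9% and 13.9% of all tested genes. The median log2 fold of the 72 was 0.01.

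Among 13 kinase, phosphatase and kinase-partner genes, 4 were lower and 1 higher in both libraries labelled Prf KO. The backgrounds over all tested genes were 21.9% lower and 13.9% higher. Unc119, an adaptor that activates LCK, had 44.7 and 58.5 FPKM in the libraries labelled Prf KO, against 20.2 and 33.9 in the WT libraries (log2 fold 0.94, SE 0.31, limma adjusted p = 0.866). Csk, the kinase that restrains LCK, had 40.1 and 34.3 in those labelled Prf KO, against 45.2 and 48.7 in WT. Txk, a TEC-family kinase, had 5.60 and 11.6 in those labelled Prf KO, against 12.2 and 14.5 in WT, and the phosphatase gene Ptpn7 had 21.9 and 27.7 in those labelled Prf KO, against 37.6 and 39.9 in WT. None passed the test, and in all 4 the groups did not overlap. In this list and those that follow, genes were named by the smallest unadjusted limma p in the same fit. The lack of overlap in all 4 partly follows from this choice. Fyn, the other Src-family kinase of the receptor and named after its values were seen, had 37.5 and 20.1 in the libraries labelled Prf KO, against 36.6 and 19.5 in the WT libraries, and so, like Cd3e, was higher in each replicate 1.

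Adaptor genes were split, with 5 of 20 lower and 5 higher in both libraries labelled Prf KO (backgrounds 21.9% and 13.9%). Sit1, a transmembrane adaptor that dampens the signal, had 49.3 and 88.6 FPKM in the libraries labelled Prf KO, against 113 and 98.5 in the WT libraries. Tespa1, a signalling scaffold of thymocytes, had 16.0 and 18.4 in those labelled Prf KO, against 36.6 and 23.4 in WT, and Themis2, a relative of the T cell adaptor gene Themis, had 19.8 and 18.4 in those labelled Prf KO, against 37.3 and 28.5 in WT. The adaptor gene Grb2, which couples LAT to the RAS pathway, had 103 and 38.5 in those labelled Prf KO, against 41.9 and 29.2 in WT, and its high value was again that of replicate 1.

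Of 17 negative regulators, 4 were lower and 2 higher in both libraries labelled Prf KO (backgrounds 21.9% and 13.9%). The ubiquitin ligase gene Cblb had 26.6 and 21.5 FPKM in the libraries labelled Prf KO, against 19.0 and 15.0 in the WT libraries. Rasa1, a RAS GTPase-activating protein gene, had 9.10 and 9.60 in those labelled Prf KO, against 4.61 and 6.62 in WT. Sla2, an adaptor that promotes receptor degradation, had 8.23 and 14.5 in those labelled Prf KO, against 17.9 and 18.7 in WT, and the kinase gene Map4k1, whose product acts on SLP-76, had 32.2 and 40.7 in those labelled Prf KO, against 48.8 and 46.9 in WT. The direction was thus mixed within the list.

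The list of 22 downstream enzymes and channels held 7 genes above and 3 below WT in both libraries labelled Prf KO. The backgrounds over all tested genes were 13.9% above and 21.9% below. Orai1, the pore of the store-operated calcium channel, had 112 and 82.5 FPKM in the libraries labelled Prf KO, against 51.9 and 68.6 in the WT libraries (log2 fold 0.68, SE 0.28, limma adjusted p = 0.866). Stim1, its sensor in the endoplasmic reticulum, had 33.0 and 28.9 in those labelled Prf KO, against 18.5 and 23.5 in WT (log2 fold 0.54). For both, the libraries labelled Prf KO lay above both WT libraries, which partly follows from their choice by smallest unadjusted p. The test was not passed. The calcium release channel gene Itpr3 had 2.36 and 3.15 in those labelled Prf KO, against 4.56 and 5.60 in WT, and the MAP kinase gene Mapk3 had 10.5 and 8.86 in those labelled Prf KO, against 7.58 and 4.77 in WT.

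**Figure D5:**
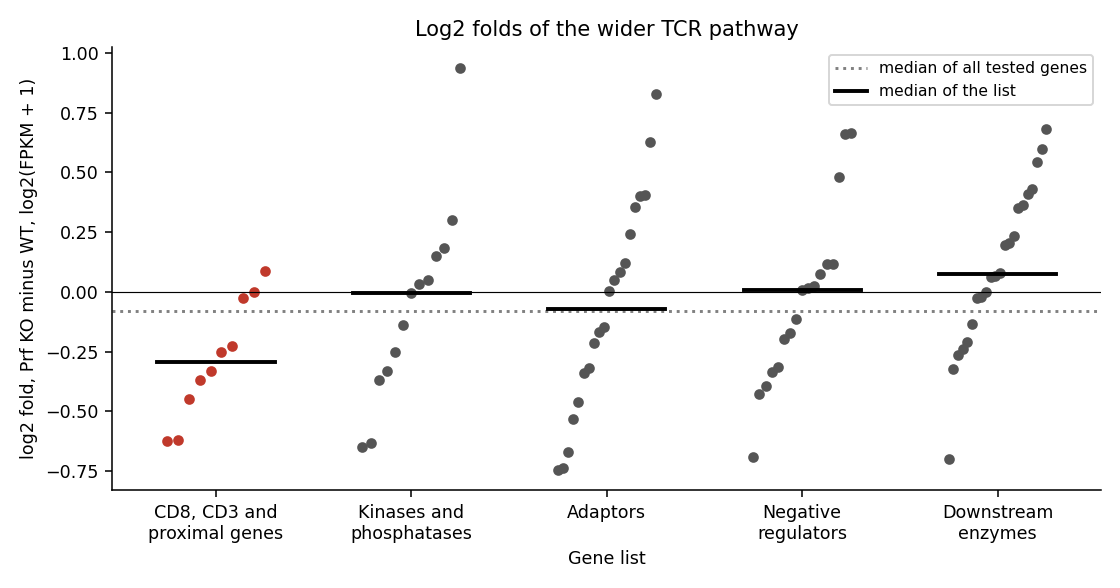
Log2 folds, labelled Prf KO minus WT on the log2(FPKM + 1) scale, of the 10 CD8, CD3 and proximal genes (red) and of the tested genes of 4 wider lists (grey), with the median of each list (bar) and of all tested genes (dotted line). The 10 genes have a median of -0.29, and the medians of the other 4 lists lie between -0.07 and 0.07.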

How the data were processed

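The deposited values were read as FPKM, a unit that neither the file header nor the labels name, because they were not whole numbers and did not sum to a common total. Per the submitters' processing notes, the tools and builds include Bowtie 0.12.2 and mm8, without their roles. How the authors quantified genes was not given in the sources used here. Column sums were 334493 and 383498 in the libraries labelled Prf KO and 378364 and 392785 in the WT libraries.

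All symbols with a mean of at least 1 were tested as log2(FPKM + 1), unscaled, in R 4.3.3 with limma 3.58.1 (intensity trend, two-sided, Benjamini-Hochberg over 9805 genes, threshold 0.05). Fold changes understate the change of low genes. Exact permutation used scipy 1.17.1 and figures matplotlib 3.10.9. The fit was tested on simulated data. Gene overlaps came from GENCODE M21 and promoters from RefSeq (GRCm38.p6), later builds than mm8, matched by symbol.

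The members and lists were chosen with earlier results of these data known. Named were the 10 members, Prf1, the 4 genes of each pathway list with the smallest unadjusted p and, for other cell types, summed levels and abundant markers. Lists held a few older symbols of genes already in them. Alternatives were the replicate block, each library left out, no filter or a mean of at least 5, 3 scalings, a pseudocount of 0.1 or 5, no trend, robust moderation and a threshold of 0.1.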

Additional observations from a re-analysis of the deposited data

How the results depend on the processing

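None of the 10 genes and none of the wider pathway genes was called by limma under any of the settings tried, and the smallest adjusted p of the 10 was 0.133 (Lat, without the library labelled Prf KO replicate 2), against 0.866 with all libraries. Over all tested genes limma called 0 with all libraries and 0 to 2 with 1 library left out (Itgae and Whamm without WT replicate 1, Rps28 and Atp5k without WT replicate 2, named after their values were seen). With a library left out, 1 group is a single library, assumed to vary like the other group, so these p-values and that of Lat rest on the spread of 1 group only. The median log2 fold over the 10 genes was -0.16 with quantile normalization and -0.52 to -0.14 with 1 library left out, the ends being without the library labelled Prf KO replicate 2 and without replicate 1. The count of genes with both libraries labelled Prf KO below both WT libraries was 3 with quantile normalization, 4 with median-ratio scaling, and 5 to 7 with 1 library left out. The shares of all tested genes in those settings were 19.1%, 17.6% and 34.4% to 48.6%. These counts were added after the values were seen.

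Log2 folds that changed sign were those of Cd8a (0.053, 0.067 and 0.10 with upper-quartile, median-ratio and quantile scaling, and -0.071 to 0.017 with 1 library left out), Cd8b1 (0.080, 0.094 and 0.11, and -0.13 to 0.13), Cd3e (-0.17 to 0.34 with 1 library left out) and Zap70 (-0.68 to 0.22). The other 6 kept their sign in every setting that was refitted. Log2 differences were also taken relative to the geometric mean of the 4 CD3 and zeta chain genes in the same library. The negative ones were -0.31 for Cd3g, -0.31 for Lat, -0.14 for Lck, -0.06 for Cd3d and -0.02 for Cd247. The positive ones were 0.06 for Lcp2, 0.08 for Zap70, 0.28 for Cd8a, 0.31 for Cd8b1 and 0.40 for Cd3e. The 4 chain genes are themselves part of that mean. Without the library labelled Prf KO replicate 1, the differences were -0.20 for Cd3g, 0.04 for Cd3d, 0.08 for Cd3e and 0.09 for Cd247. For the signalling genes they were then 0.09 for Lat, 0.14 for Lck, 0.47 for Zap70 and 0.23 for Lcp2. For the coreceptor genes they were 0.18 for Cd8a and 0.12 for Cd8b1. The replicate differences of the 2 groups had a Pearson r of 0.07 across all tested genes. They went the same way for 7 of the 10 genes. The share of all tested genes that did so is not given here, so nothing is read from that count. Nothing in the labels says that the replicate numbers pair the samples, and they were not taken to. The fit with the replicate block called 0 genes and left the median log2 fold at -0.29. Values of this unit hold no read counts, so no counting error or detection floor could be given. The cause of these differences between settings was not tested.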
